A study of Mus musculus with 6 samples.

Results

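The proteasome genes were read as every protein-coding row of the gene table whose symbol is Psma, Psmb, Psmc, Psmd, Psme, Psmf or Psmg followed by a number, with the testis subunit Psma8 left out. This symbol rule uses no measured value, and it found 49 of 48709 genes. They are the 14 constitutive subunits of the core particle (7 in the alpha ring, 7 in the beta ring), the 3 immunoproteasome subunits, the 17 subunits of the regulatory cap, and 13 activators, inhibitors and assembly chaperones. The last members are Psmb11, the catalytic subunit of the thymus, and Psmc3ip. Psmc3ip matched by its symbol, which records a partner of Psmc3, but the protein is a factor of meiotic recombination and no part of the proteasome. It is counted among the 49 and described apart from the other 48.

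The proteasome is the barrel-shaped protease that degrades proteins tagged with ubiquitin. In the core particle, beta subunits cut the substrate inside a chamber gated by alpha rings, and the cap on its end binds the ubiquitin chain, removes it and threads the protein in by means of its ATPases. In cells exposed to interferon gamma, and in many blood cells at rest, the catalytic subunits Psmb5, Psmb6 and Psmb7 are replaced by Psmb8, Psmb9 and Psmb10 to form the immunoproteasome, whose products feed peptide presentation on MHC class I. Macrophages use this route to present peptides and to clear damaged proteins.

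Messenger RNA was sequenced from macrophages washed out of the peritoneal cavity of untreated C57BL/6 mice aged 6 to 8 weeks and sorted as F4/80+ CD11b+ cells. There were 3 libraries from Zeb1 (+/-) mice, which are heterozygous for the zinc-finger repressor Zeb1, and 3 libraries from wild-type mice, each made from a pool of 2 mice. Pools hide the spread between single animals, and the labels name the Zeb1 allele no further than Zeb1 (+/-), so the p-values given here measure the spread between pooled libraries. The question was which transcripts of macrophages at rest differ between the genotypes.

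Totals ran from 17859872 to 42165006 counts, and the proteasome genes together took 0.27%, 0.295% and 0.276% of the counts in Zeb1 (+/-) replicates 1, 2 and 3, against 0.283%, 0.255% and 0.263% in wild-type replicates 1, 2 and 3. Values below are CPM, counts scaled to library size. Zeb1 itself had 3.85, 3.45 and 3.62 CPM in Zeb1 (+/-) libraries, against 5.44, 7.56 and 7.22 CPM in wild-type libraries (edgeR adjusted p = 0.0522). The 8 macrophage markers summed to 45400 to 61840 CPM in Zeb1 (+/-) libraries and to 44260 to 62440 CPM in wild-type libraries, and none was at 0. Lyz2, at a mean of 42760 CPM in Zeb1 (+/-) libraries and 42420 CPM in wild-type libraries, makes up most of these sums. Of the other 7, none of which passed the threshold, Adgre1 (log2 fold change 0.26, adjusted p = 0.111) and Gata6 (0.31, adjusted p = 0.115) lay apart and higher in Zeb1 (+/-) libraries and Csf1r (−0.15, adjusted p = 0.346) apart and lower. The 12 B cell markers summed to 86.2 to 116 CPM in Zeb1 (+/-) libraries and to 141 to 282.8 CPM in wild-type libraries, none at 0, with 0 of 12 past the threshold, 12 of 12 fold changes below 0 and a median log2 fold change of −0.95. Markers of T and NK cells summed to 11.4 to 13.5 CPM in Zeb1 (+/-) libraries and to 17.5 to 21.2 CPM in wild-type libraries, with 1 of 3 tested, Cd2, lower in Zeb1 (+/-). Cd2, at a mean of 10.5 CPM in Zeb1 (+/-) libraries and 16.3 CPM in wild-type libraries, makes up most of these sums. The other tested markers of this list, Lck and Il7r, had log2 fold changes of 0.06 and −0.08. Those not tested, Cd3d, Cd3e and Cd3g among them, each averaged at most 0.3334 CPM in either genotype. The lower sum in Zeb1 (+/-) libraries is thus mostly that of Cd2. The sums of neutrophil, dendritic cell and mesothelial markers overlapped between the genotypes and were at most 15.5 CPM in every library. Small structural RNAs summed to 43.6 to 45.5 CPM in Zeb1 (+/-) libraries, against 4.14, 8.69 and 42.2 CPM in wild-type replicates 1, 2 and 3. The part of the B cell markers and of the structural RNA in the results below was not tested beyond fits that carry each as a term, whose values are given with each class. The structural RNA term takes up the low libraries, wild-type replicates 1 and 2. The fold changes of that fit thus set the Zeb1 (+/-) libraries against wild-type replicate 3 alone. The B cell marker sums do not overlap between the genotypes, so the B cell covariate is largely confounded with genotype. Fold changes fitted with that covariate cannot separate the 2 and are given as description only. In bulk samples, fewer cells of a type and less RNA per cell cannot be told apart.

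No proteasome gene was called different between the genotypes at the threshold, and for 5 of them the 95% confidence interval of the log2 fold change did not cover 0. By edgeR's quasi-likelihood test with Benjamini-Hochberg adjustment over all 12940 tested genes, 0 of the 48 members with enough counts to be tested passed an adjusted p of 0.05, where 0.587% of all tested genes passed it (76 genes, 20 higher and 56 lower in Zeb1 (+/-)). DESeq2 and limma-voom also called 0 members. At an unadjusted p under 0.05 edgeR found 5 members higher in Zeb1 (+/-), where 6.30% of all genes were, and 0 members lower, where 8.26% were. The 5 are Psmd14, Psmd12 and Psmc2 of the cap, Psma6 of the core and the chaperone Psmg2, and the smallest adjusted p among all members was the 0.171 of Psmd14. The member that was not tested is Psmb11, which had 0 counts in all 6 libraries. A count of 0 allows up to 3 counts, or 0.0711 to 0.168 CPM depending on the library, and this limit covers counting error only.

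The confidence intervals hold at 95% for each gene taken alone, not for all members jointly, and the genes share their libraries. Over the 47 tested genes that encode proteasome proteins, the log2 fold changes, Zeb1 (+/-) over wild-type as throughout, ran from −0.06 to 0.32 with a median of 0.08, where the median over all tested genes was −0.000384. Their 95% confidence intervals all lay between −0.33 and 0.53, that is between 0.794-fold and 1.45-fold. For 33 of the 47 the whole interval lay within 0.3 of 0 on the log2 scale, and for 45 it lay within 0.5 of 0. Of all 12940 tested genes, 4781 (36.9%) had intervals within 0.3 of 0 and 8647 within 0.5. In 39 of the 47, the difference between the genotype means was smaller than the range of the 3 wild-type libraries, a count that was not made over all genes.

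Levels within the complex differed far more between subunits than between genotypes. To compare genes, CPM were divided by the length of all annotated exons of the gene in kb. On this scale the alpha-ring genes had a median of 33.2 CPM per kb in Zeb1 (+/-) libraries and 31.4 in wild-type libraries, and the beta-ring genes 27.8 in Zeb1 (+/-) and 27.2 in wild-type libraries. The cap ATPases had a median of 27.7 CPM per kb in Zeb1 (+/-) libraries and 26.5 in wild-type libraries, while the lid genes had 16.3 in Zeb1 (+/-) and 14.5 in wild-type libraries. The chaperones that assemble the cap were the lowest class, with medians of 3.81 CPM per kb in both genotypes. The order of the 47 genes by level was nearly the same in both genotypes, with a Spearman rho of 0.995 across genes, which are not independent replicates and share libraries and lengths. The order depends on the length used: with the longest protein-coding transcript of each gene in place of all exons, the wild-type order had a rho of 0.894 with that on exon length.

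**Figure D1:**
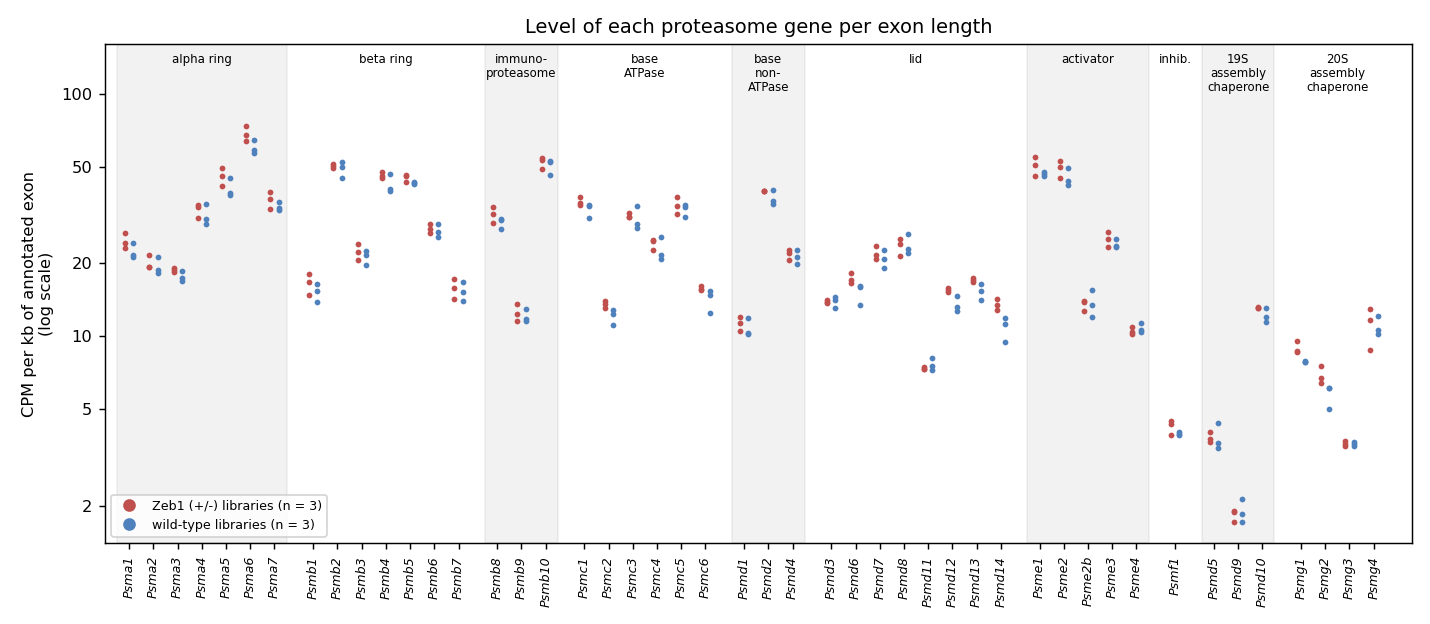
Level of each expressed proteasome gene in CPM per kb of annotated exon (log axis), grouped by role, with Zeb1 (+/-) libraries drawn left of wild-type libraries for each gene. The 6 libraries of a gene lie close together, and the genes of a role are spread from 18.7 to 68.1 CPM per kb in the alpha ring and from 7.37 to 23.5 CPM per kb in the lid in Zeb1 (+/-) means.

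The promoters shown here were searched for letters that known factors bind. Zeb1 binds the E-box CACCTG, the NRF1 and NRF2 factors that control proteasome genes bind antioxidant response elements, written here as TGACNNNGC, and the GAS element TTCNNNGAA is found in promoters that respond to interferon gamma. The windows are RefSeq promoters on GRCm38.p6, 250 bases before to 50 after an annotated start, printed 5′ to 3′ on the strand of the gene, with matches on either strand in capitals. Psmd8, a lid subunit, is shown because it holds the most E-boxes of any member, 3 in all, starting 213, 176 and 64 bases before the start (chr7:29180624-29180923, minus strand). Psmb9 (chr17:34187281-34187580, minus strand) is the immunoproteasome gene with an E-box, 141 bases before the start, and a reverse-strand CCAAT box 8 bases before it. Psmb8 (chr17:34197945-34198244, plus strand) holds a GAS element 97 bases before the start, and Psmb5 (chr14:54617946-54618245, minus strand), the subunit it replaces, holds an antioxidant response element 47 bases before the start.
Psmd8: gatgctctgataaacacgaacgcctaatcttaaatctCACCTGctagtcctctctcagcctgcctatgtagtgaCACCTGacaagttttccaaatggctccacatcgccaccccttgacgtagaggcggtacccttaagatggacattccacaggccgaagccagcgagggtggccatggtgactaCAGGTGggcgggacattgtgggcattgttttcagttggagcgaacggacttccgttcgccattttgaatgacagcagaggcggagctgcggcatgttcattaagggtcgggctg
Psmb9: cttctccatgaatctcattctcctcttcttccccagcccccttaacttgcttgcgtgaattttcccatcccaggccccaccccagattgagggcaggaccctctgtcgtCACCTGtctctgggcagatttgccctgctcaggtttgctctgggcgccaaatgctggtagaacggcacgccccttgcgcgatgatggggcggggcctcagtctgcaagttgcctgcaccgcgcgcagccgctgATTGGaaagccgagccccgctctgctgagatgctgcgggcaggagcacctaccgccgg
Psmb8: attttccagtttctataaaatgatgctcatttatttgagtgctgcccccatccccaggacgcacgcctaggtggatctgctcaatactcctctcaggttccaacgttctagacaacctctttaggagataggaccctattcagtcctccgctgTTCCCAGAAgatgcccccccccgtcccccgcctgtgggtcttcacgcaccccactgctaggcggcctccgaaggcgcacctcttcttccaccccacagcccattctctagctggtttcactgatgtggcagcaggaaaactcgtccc
Psmb5: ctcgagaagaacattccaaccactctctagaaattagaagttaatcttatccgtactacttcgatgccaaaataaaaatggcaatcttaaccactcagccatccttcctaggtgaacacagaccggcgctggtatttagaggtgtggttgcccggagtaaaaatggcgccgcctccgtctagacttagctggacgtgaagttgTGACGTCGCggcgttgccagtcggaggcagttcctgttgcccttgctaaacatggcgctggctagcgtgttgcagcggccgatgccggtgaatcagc

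RefSeq held 45 promoters for 42 of the 49 members. The E-box CACCTG was in 10 of the 45 (22.2%), against 20.2% of all 32851 promoters. The antioxidant response element was in 6 of the 45 (13.3%), against 12.4% of all promoters, the GAS element was in 3 of them (6.67%, against 8.3%), and the CCAAT box was in 15 (33.3%, against 37.4%). An interferon-stimulated response element, written as a pair of GAAA stretches with 2 bases between them, was in 5 promoters (11.1%, against 3.44%), those of Psmb3, Psmd4, Psmd9, Psme1 and Psmg4. None of the motifs overlaps another in the 4 printed windows. The 9 tested genes with an E-box had log2 fold changes of −0.02 to 0.19 with a median of 0.05, and the 32 without had −0.06 to 0.32 with a median of 0.10, with 0 called in either set. Psmd8, with 3 E-boxes, had 65.1, 73.1 and 77.0 CPM in Zeb1 (+/-) libraries against 80.7, 69.6 and 67.1 CPM in wild-type libraries, which overlap, and a log2 fold change of −0.01. A match to these letters is a description of the sequence and shows no binding.

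The genotypes overlapped in the summed level of the constitutive core particle, which ran from 925.3 to 1038 CPM in Zeb1 (+/-) libraries and from 870.1 to 984 CPM in wild-type libraries. Its 14 genes summed to 978.7 ± 56.6 CPM in Zeb1 (+/-) libraries and 914.3 ± 61.1 CPM in wild-type libraries (SD, n = 3 each). All 14 log2 fold changes were above 0, from 0.03 to 0.18 with a median of 0.09, and 0 of 14 passed the edgeR test, the smallest adjusted p being 0.317. Among all tested genes 49.9% of the fold changes were above 0. The 7 alpha-ring genes, which form the gate, had a median of 0.10 and the 7 beta-ring genes 0.07. In 1 of the 14, Psmb5, the 3 Zeb1 (+/-) libraries lay above all 3 wild-type libraries, and in 0 they lay below, where 9.60% and 10.3% of all tested genes did so. When the split by structural RNA was fitted too, the core median was 0.12, and with the B cell markers as a covariate it was 0.05 with 12 of 14 above 0.

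Psma6 (ENSMUSG00000021024.14, chromosome 12 from 55384222 to 55418454, plus strand), an alpha-ring subunit, had the highest fold change of the core and its highest level per kb of exon. Per kb of the longest protein-coding transcript Psma7 was higher, at 96.8 against 80.6 for Psma6 in Zeb1 (+/-) libraries and 90.7 against 71.0 in wild-type libraries. Psma6 had 83.5, 90.3 and 78.3 CPM in Zeb1 (+/-) libraries against 79.1, 70.5 and 72.5 CPM in wild-type libraries, with Zeb1 (+/-) replicate 3 below wild-type replicate 1. Its log2 fold change was 0.18 ± 0.08 (SE; edgeR adjusted p = 0.317), or 1.135-fold. Psmb6 (chromosome 11 from 70525367 to 70527858, plus strand), the caspase-like catalytic subunit, had the lowest fold change, with 49.9, 54.3 and 51.9 CPM in Zeb1 (+/-) libraries against 54.2, 50.5 and 47.9 CPM in wild-type libraries. The groups overlap throughout, and the log2 fold change was 0.03 ± 0.07 (adjusted p = 0.855). Psmb7 (chromosome 2 from 38588036 to 38644087, minus strand), the trypsin-like catalytic subunit, was the lowest of the core per kb of exon when averaged over the genotypes. In wild-type libraries Psmb1 was slightly lower, at 15.2 against 15.3 CPM per kb. Per kb of the longest protein-coding transcript Psma2 was lower. It had 25.3 against 46.5 for Psmb7 in Zeb1 (+/-) libraries, and 24.5 against 45.1 in wild-type libraries. Psmb7 had 48.9, 58.8 and 54.1 CPM in Zeb1 (+/-) libraries against 57.2, 47.7 and 52.0 CPM in wild-type libraries. Its log2 fold change was 0.05 ± 0.09 (adjusted p = 0.843), and 405 bases of its exons, 11.8%, overlap Nek6 on the other strand.

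Psmb5 (ENSMUSG00000022193.6, chromosome 14 from 54614119 to 54618022, minus strand) is the chymotrypsin-like catalytic subunit. It had 39.0, 41.6 and 41.1 CPM in Zeb1 (+/-) libraries against 38.9, 38.4 and 38.0 CPM in wild-type libraries. The groups do not overlap, but by only a small margin, and the log2 fold change was 0.08 ± 0.06 (adjusted p = 0.588). Other annotated genes hold 54.1% of its 50-base stretches, mostly the pseudogene Gm3375, which itself held 17 counts over the 6 libraries, so the split of its reads is less certain than for Psmb6 and Psmb7.

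The core genes moved together from library to library. Measured as the deviation of each gene from its own mean over the 6 libraries, the median core gene stood at −0.04, 0.14 and 0.05 on the log2 scale in Zeb1 (+/-) replicates 1, 2 and 3, and at 0.06, −0.12 and −0.08 in wild-type replicates 1, 2 and 3. The median cap gene stood at 0.00414, 0.08 and 0.05 in Zeb1 (+/-) libraries and at 0.06, −0.16 and −0.07 in wild-type libraries. Wild-type replicate 1 was thus above Zeb1 (+/-) replicate 1 for both particles. Of the 47 genes, 30 had their highest value in Zeb1 (+/-) replicate 2, the deepest library, and 11 in wild-type replicate 1, while 29 had their lowest value in wild-type replicate 2 and 12 in wild-type replicate 3. Wild-type replicates 1 and 2, which share the low structural RNA, stood on opposite sides of the mean. Without wild-type replicate 2 the cap median log2 fold change was 0.03 and the core median 0.07, and without Zeb1 (+/-) replicate 2 they were 0.07 and 0.06.

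**Figure D2:**
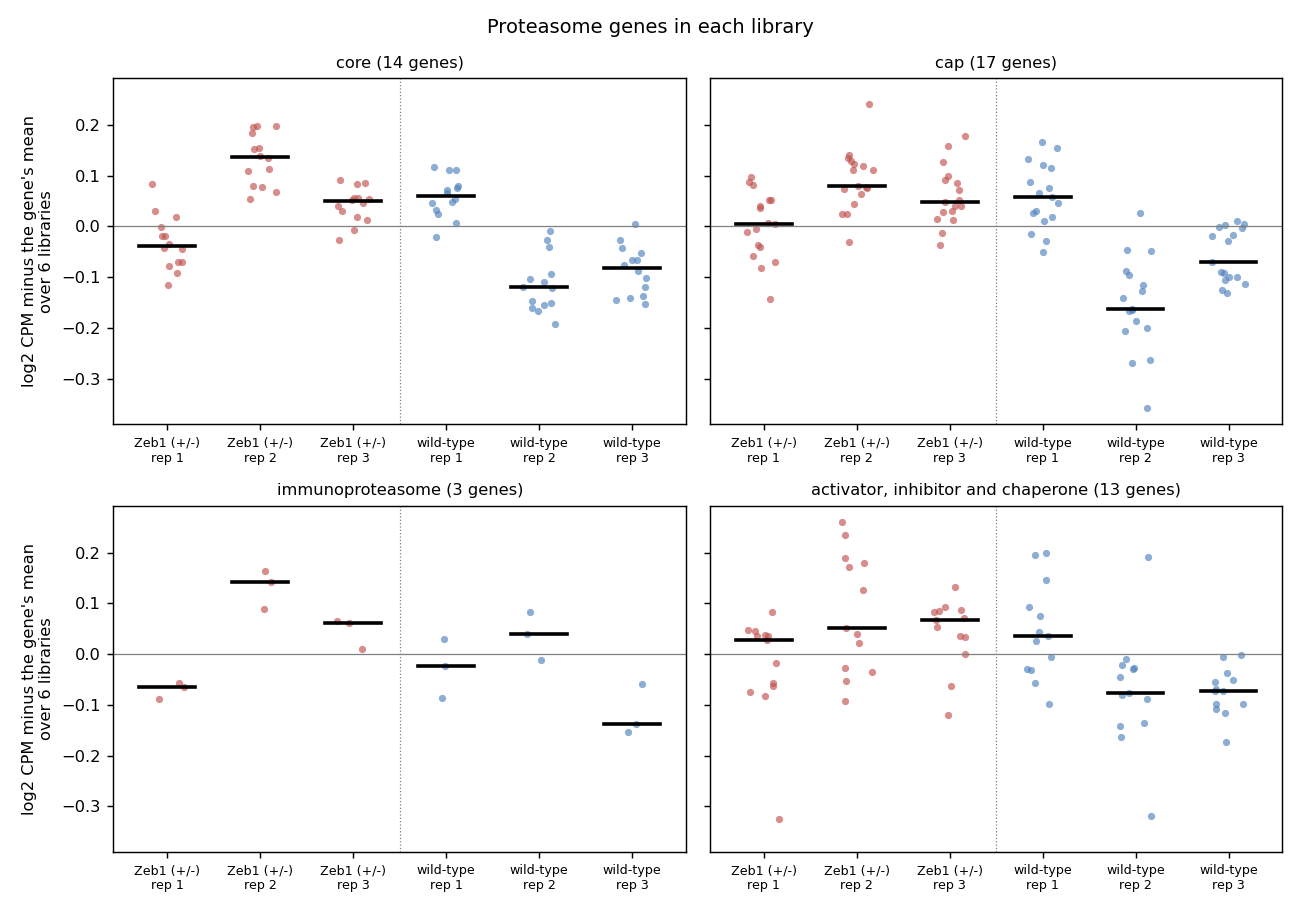
Deviation of each proteasome gene from its own mean over the 6 libraries (log2), by library and class, Zeb1 (+/-) libraries left of wild-type libraries, with the class median marked. Wild-type replicate 2 is the lowest library for the core (median −0.12) and the cap (median −0.16), Zeb1 (+/-) replicate 2 is the highest (0.14 and 0.08), and the immunoproteasome is lowest in wild-type replicate 3 (−0.14).

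The 3 immunoproteasome genes were expressed at rest in both genotypes, at a median of 31.8 CPM per kb of exon in Zeb1 (+/-) libraries and 29.3 in wild-type libraries, and none was called. Together they summed to 242.2 ± 16.6 CPM in Zeb1 (+/-) libraries and 229.2 ± 12.6 CPM in wild-type libraries (SD, n = 3 each). Their intervals all lay between −0.14 and 0.29, or 0.911-fold to 1.22-fold, and 0 of 3 had groups that did not overlap, where 9.60% of all tested genes lay apart higher and 10.3% lower. Psmb8 (ENSMUSG00000024338.14, chromosome 17 from 34197721 to 34201454, plus strand), which takes the place of Psmb5, had 99.1, 115.6 and 107.9 CPM in Zeb1 (+/-) libraries against 101.5, 102.3 and 93.8 CPM in wild-type libraries. Zeb1 (+/-) replicate 1 lay below 2 of the wild-type libraries, and the log2 fold change was 0.12 ± 0.07 (adjusted p = 0.4998).

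Psmb9 (ENSMUSG00000096727.2, chromosome 17 from 34181987 to 34187764, minus strand), which takes the place of Psmb6, lies near Psmb8 in the MHC region and was the lowest of the 3. It had 42.2, 49.4 and 45.2 CPM in Zeb1 (+/-) libraries against 42.2, 47.5 and 43.0 CPM in wild-type libraries, and the fitted log2 difference was 0.05 ± 0.08 (adjusted p = 0.823). The groups overlap over nearly their whole range. Its exons share 212 bases, 5.79% of their length, with the peptide transporter gene Tap1 on the other strand, and the strand setting of the counting is not given in the sources used here. Tap1 averaged 75.6 ± 4.85 CPM in Zeb1 (+/-) libraries and 82.8 ± 6.79 CPM in wild-type libraries (log2 fold change −0.13, adjusted p = 0.488).

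Psmb10 (ENSMUSG00000031897.9, chromosome 8 from 105935735 to 105938444, minus strand), which takes the place of Psmb7, had 83.4, 92.8 and 91.1 CPM in Zeb1 (+/-) libraries against 89.1, 89.8 and 78.5 CPM in wild-type libraries. Zeb1 (+/-) replicate 1 lay between wild-type values, and the log2 fold change was 0.06 ± 0.08 (adjusted p = 0.775). With the B cell markers as a covariate, Psmb9 and Psmb10 had log2 fold changes of −0.02 and −0.12, and Psmb8 had 9.84e-05. None of them passed the threshold with this covariate. The split by structural RNA leaves only wild-type replicate 3 to set against the Zeb1 (+/-) libraries. With that split the fold changes moved the other way, to 0.09 for Psmb9, 0.19 for Psmb10 and 0.20 for Psmb8.

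Each immunoproteasome subunit was set against the subunit it replaces within each library. Per kb of exon, the ratio of Psmb8 to Psmb5 was 0.676, 0.738 and 0.699 in Zeb1 (+/-) libraries and 0.695, 0.709 and 0.656 in wild-type libraries. The groups overlap, and the log2 ratio differed by 0.04 (exact two-sided permutation p = 0.5, adjusted over the 3 ratios 0.9). Per kb of the longest protein-coding transcript the same ratio was 1.404, 1.53 and 1.45 in Zeb1 (+/-) libraries and 1.44, 1.47 and 1.36 in wild-type libraries, so which of the pair is the more abundant transcript turns with the length used. The Psmb9 to Psmb6 ratio was 0.432, 0.465 and 0.445 in Zeb1 (+/-) libraries and 0.398, 0.481 and 0.459 in wild-type libraries (difference in log2 ratio 0.00818, exact two-sided permutation p = 0.9). Psmb9 was below Psmb6 with either length. The Psmb10 to Psmb7 ratio was 3.43, 3.17 and 3.38 in Zeb1 (+/-) libraries and 3.13, 3.77 and 3.03 in wild-type libraries (difference 0.01, exact two-sided permutation p = 0.9), and Psmb10 was above Psmb7 with either length. With 3 libraries against 3, the smallest p this test allows is 0.1.

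**Figure D3:**
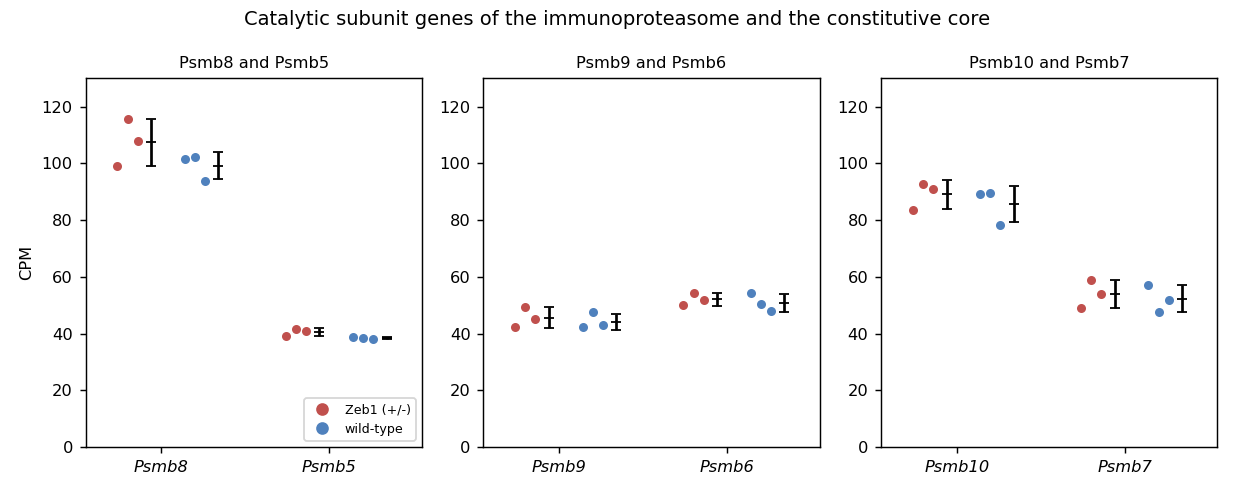
Levels in CPM of the 3 constitutive catalytic subunits and the immunoproteasome subunits that replace them, 1 point per library with the mean ± SD as a black bar beside each group, Zeb1 (+/-) left of wild-type. The Zeb1 (+/-) and wild-type points overlap for 5 of the 6 genes, and Psmb5 is the gene whose groups do not (39.0 to 41.6 CPM against 38.0 to 38.9 CPM).

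The regulatory cap held the largest fold change of the complex, that of Psmd14, and none of its genes passed the test. Its 17 genes summed to 1100 ± 32 CPM in Zeb1 (+/-) libraries and 1034 ± 74.7 CPM in wild-type libraries (SD, n = 3 each). Of the 17 log2 fold changes 15 were above 0 and 2 below, with a median of 0.09 and a smallest adjusted p of 0.171. In 6 of the 17 (35.3%) all Zeb1 (+/-) libraries lay above all wild-type libraries, where 9.60% of all tested genes did, and in 0 they lay below, where 10.3% did. The 6 are the ATPases Psmc2 and Psmc6 and the lid subunits Psmd6, Psmd12, Psmd13 and Psmd14. These genes share their libraries, and in 13 of the 17 cap genes the lowest value of all 6 was that of wild-type replicate 2. When the split by structural RNA was fitted too, the cap median was 0.10 and with the B cell markers as a covariate it was 0.08, with 0 of 17 called under either and 11 of 17 above 0 under the covariate.

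Psmd14 (ENSMUSG00000026914.15, chromosome 2 from 61711694 to 61800376, plus strand) is the metalloprotease of the lid that cuts the ubiquitin chain from the substrate. It had 36.2, 40.3 and 38.0 CPM in Zeb1 (+/-) libraries against 33.4, 26.6 and 31.8 CPM in wild-type libraries, averaging 38.1 ± 2.04 CPM and 30.6 ± 3.57 CPM (SD, n = 3 each). The groups do not overlap, and wild-type replicate 2 was the lowest library. Its log2 fold change was 0.32 ± 0.09 (SE; 95% confidence interval 0.11 to 0.53), or 1.25-fold, with an adjusted p of 0.171. Without the filter on low counts, edgeR put the log2 fold change at 0.34 and its adjusted p at 0.0351, the only setting of 15 that called any proteasome gene. Left-out libraries moved its log2 fold change between 0.23 and 0.40. It was 0.27 with the structural RNA split, which rests on wild-type replicate 3, and 0.40 with the B cell covariate (adjusted p = 0.312).

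Psmd11 (chromosome 11 from 80428615 to 80473248, plus strand), a lid subunit, had the lowest fold change of the cap and its lowest level per kb of exon. It had 47.5, 46.9 and 46.7 CPM in Zeb1 (+/-) libraries against 52.1, 46.3 and 48.1 CPM in wild-type libraries, which overlap, and the log2 fold change was −0.05 ± 0.07 (adjusted p = 0.746). Psmd2 (chromosome 16 from 20651652 to 20663414, plus strand), a scaffold of the base that receives ubiquitin shuttles, had the highest level of the cap. It had 160.3, 159.4 and 160.3 CPM in Zeb1 (+/-) libraries against 161.8, 145.4 and 141.8 CPM in wild-type libraries, so the Zeb1 (+/-) libraries lay within the wild-type range (log2 fold change 0.10 ± 0.07, adjusted p = 0.552). The log2 fold change of Psmd2 was 0.17 with the structural RNA split and 0.0105 with the B cell covariate. The 6 ATPases, which unfold the substrate, had log2 fold changes of 0.05 to 0.17, and the 8 lid genes −0.05 to 0.32.

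**Figure D4:**
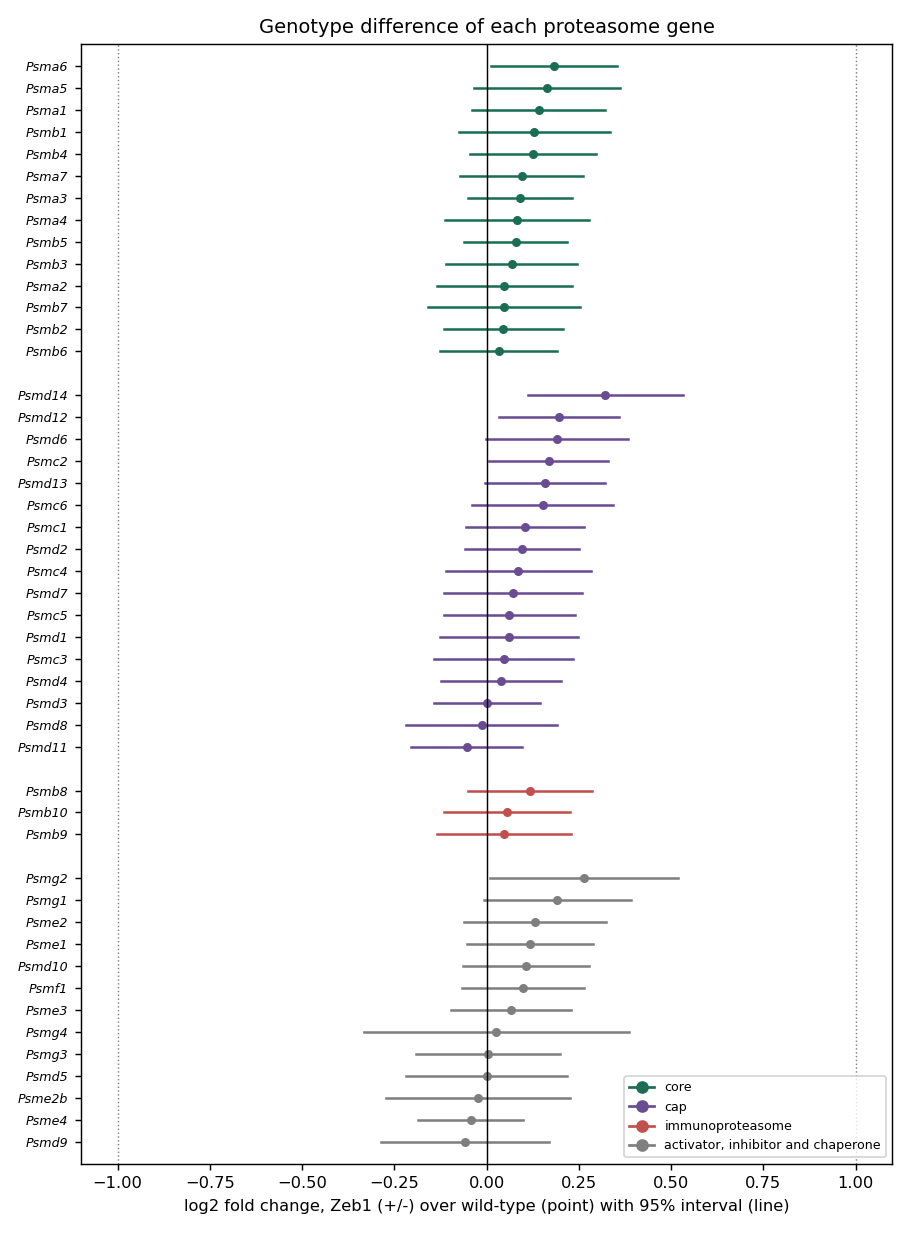
Log2 fold change, Zeb1 (+/-) over wild-type, of each tested proteasome gene with its 95% confidence interval, grouped by class, with dotted lines at −1 and 1. The points lie between −0.06 and 0.32, all but 5 intervals cover 0, and Psmd14 lies farthest from 0.

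Activators open the core without ATP. The Psme1 and Psme2 proteins form the interferon-inducible activator, Psme3 its nuclear relative, and Psme4 a large nuclear activator. Psme1 (chromosome 14 from 55578123 to 55581529, plus strand) was the highest of them per kb, with 101.1, 121.2 and 112.4 CPM in Zeb1 (+/-) libraries against 104.9, 100.7 and 103.3 CPM in wild-type libraries. Zeb1 (+/-) replicate 1 lay within the wild-type range, and the log2 fold change was 0.12 ± 0.08 (adjusted p = 0.506). Psme2 (chromosome 14 from 55587441 to 55591113, minus strand) had the highest fold change of the activators, with 79.5, 93.1 and 87.6 CPM in Zeb1 (+/-) libraries against 87.1, 73.8 and 76.7 CPM in wild-type libraries (0.13 ± 0.09, adjusted p = 0.509). The groups overlap. Psme2 shares 28.3% of its 50-base stretches with Psme2b, and Psme2b, at a mean of 11.3 and 11.4 CPM in Zeb1 (+/-) and wild-type libraries, shares 68.7% of its own with Psme2, so the counts of both are uncertain. Fitted with the structural RNA split, Psme1 and Psme2 had log2 fold changes of 0.11 and 0.18, and with the B cell covariate 0.10 and 0.06.

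Psme4 (chromosome 11 from 30771726 to 30880361, plus strand) had the lowest fold change of the activators and the lowest level per kb of exon. It had 85.1, 86.8 and 91.1 CPM in Zeb1 (+/-) libraries against 94.9, 87.3 and 88.9 CPM in wild-type libraries, which overlap (log2 fold change −0.04 ± 0.06, adjusted p = 0.791). The log2 fold change of Psme4 was −0.02 with the structural RNA split and −0.09 with the B cell covariate. The inhibitor Psmf1 averaged 27.4 ± 1.84 CPM in Zeb1 (+/-) libraries and 25.5 ± 0.446 CPM in wild-type libraries (log2 fold change 0.10, adjusted p = 0.562). The activators, the inhibitor and the chaperones together held 0 called genes of 13, with 9 fold changes above 0 and 4 below. In 3 of the 13 (23.1%), Psmg1, Psmg2 and Psmd10, all Zeb1 (+/-) libraries lay above all wild-type libraries, and in 0 they lay below, where 9.60% and 10.3% of all tested genes did so.

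Among the chaperones, which build the particles and leave them, Psmg2 pairs with Psmg1 to assemble the alpha ring. Psmg2 (ENSMUSG00000024537.4, chromosome 18 from 67641599 to 67654162, plus strand) lies on the chromosome of Zeb1 and had the highest fold change of the group. It had 11.2, 13.1 and 11.6 CPM in Zeb1 (+/-) libraries against 10.7, 8.73 and 10.6 CPM in wild-type libraries, and its log2 fold change was 0.26 ± 0.11 (adjusted p = 0.329). The groups do not overlap, with wild-type replicate 2 lowest. Its partner Psmg1 averaged 12.03 ± 0.71 CPM in Zeb1 (+/-) libraries and 10.6 ± 0.0777 CPM in wild-type libraries (0.19 ± 0.09, adjusted p = 0.353). Psmd10, the ankyrin-repeat chaperone gankyrin, was the highest chaperone per kb, with 19.2, 19.2 and 19.4 CPM in Zeb1 (+/-) libraries against 19.1, 16.9 and 17.6 CPM in wild-type libraries. The Zeb1 (+/-) libraries lay just above the highest wild-type library (0.11 ± 0.08, adjusted p = 0.552). With the structural RNA split Psmg2 and Psmd10 had log2 fold changes of 0.18 and 0.13, and with the B cell covariate 0.39 and 0.09, none past the threshold.

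Psmd9 (chromosome 5 from 123169413 to 123250131, plus strand), a chaperone of the base ATPases, was the lowest of the group per kb and in fold change. It had 13.7, 13.7 and 12.4 CPM in Zeb1 (+/-) libraries against 15.4, 13.4 and 12.4 CPM in wild-type libraries, which overlap (log2 fold change −0.06 ± 0.10, adjusted p = 0.825). Its log2 fold change was 0.09 with the structural RNA split and −0.17 with the B cell covariate. Psmc3ip, which is no proteasome gene, was low, at 1.05 ± 0.247 CPM in Zeb1 (+/-) libraries and 0.897 ± 0.54 CPM in wild-type libraries. Its interval, −0.71 to 1.25 on the log2 scale, was much wider than those of the proteasome genes, and 21.2% of its exon length is shared with Mlx on the other strand.

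Genes around the proteasome were read from lists of known function, and 0 passed the edgeR threshold in any of them. Among 10 other factors of the complex, Usp14, the ubiquitin protease that docks on the cap, had the smallest p, with 42.04, 42.8 and 42.2 CPM in Zeb1 (+/-) libraries against 37.9, 36.9 and 38.5 CPM in wild-type libraries (log2 fold change 0.17, adjusted p = 0.256). Pomp, the chaperone that joins the rings of the core, averaged 72.2 ± 4.32 CPM in Zeb1 (+/-) libraries and 64.5 ± 4.97 CPM in wild-type libraries (0.16, adjusted p = 0.367). Of 8 tested genes around NRF1, 3 had fold changes above 0 and 5 below. Nfe2l1, which encodes the factor that raises proteasome genes when the proteasome is inhibited, averaged 128.8 ± 4.06 CPM in Zeb1 (+/-) libraries and 133.0 ± 2.38 CPM in wild-type libraries (−0.05, adjusted p = 0.765). Its relative Nfe2l2 had the smallest p of that list, with 103.2, 117.5 and 121.6 CPM in Zeb1 (+/-) libraries against 128.4, 124.6 and 121.8 CPM in wild-type libraries (−0.13, adjusted p = 0.455).

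Of the 10 genes of interferon control, 3 had fold changes above 0 and 7 below, with a median of −0.10. Ifngr1, the ligand-binding chain of the interferon gamma receptor, had 145.6, 137.8 and 142.1 CPM in Zeb1 (+/-) libraries against 166.2, 171.8 and 169.7 CPM in wild-type libraries. The groups lie well apart, and the log2 fold change was −0.26 ± 0.06 (SE), with an adjusted p of 0.102 that missed the threshold. Irf8 and Nlrc5 lay farther from 0 than Ifngr1, with edgeR log2 fold changes of −0.36 (adjusted p = 0.234) and −0.31 (adjusted p = 0.243). For Irf8 the groups overlap, and for Nlrc5 all Zeb1 (+/-) libraries lay below all wild-type libraries. Irf1, which binds the promoters of immunoproteasome genes, averaged 87.0 ± 4.54 CPM in Zeb1 (+/-) libraries and 96.2 ± 6.85 CPM in wild-type libraries (adjusted p = 0.399).

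Upstream of the proteasome, 6 ubiquitin and E1 genes had 4 fold changes above 0 and 2 below, led by the ubiquitin fusion gene Rps27a with 498.2, 572.9 and 555.8 CPM in Zeb1 (+/-) libraries against 464.1, 403.4 and 473.4 CPM in wild-type libraries (log2 fold change 0.28, adjusted p = 0.19). The 14 genes of ubiquitin shuttles and the p97 unfoldase split into 7 above and 7 below, and Zfand2b had the smallest p among them. It had 14.1, 16.8 and 14.3 CPM in Zeb1 (+/-) libraries against 18.5, 18.1 and 16.5 CPM in wild-type libraries, which overlap (log2 fold change −0.23, adjusted p = 0.317). Downstream, 10 of 10 cytosolic peptidases, which trim the peptides the proteasome releases, had fold changes above 0 with a median of 0.09, and the smallest p was that of the leucine aminopeptidase Lap3. Lap3 had 24.1, 28.1 and 29.8 CPM in Zeb1 (+/-) libraries against 23.9, 21.2 and 21.4 CPM in wild-type libraries (0.30 ± 0.09, adjusted p = 0.193), apart by a narrow margin. In peptide transport and MHC class I, 8 of 10 were above 0, and the peptide transporter genes Tap1 (−0.13) and Tap2 (−0.10) were below. The chaperone Calr had the smallest p of this list, with 1335, 1316 and 1341 CPM in Zeb1 (+/-) libraries against 1211, 973.3 and 1041 CPM in wild-type libraries (0.31 ± 0.09, adjusted p = 0.159). At an unadjusted p under 0.05 this list held 4 genes higher (Calr, Pdia3, Canx and Erap1) and 0 lower. The interferon list held 0 higher and 3 lower (Ifngr1, Irf8 and Nlrc5), where 6.30% of all tested genes were higher and 8.26% lower.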

How the data were processed

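The authors deposited expected counts per gene in 1 table with a column per library. STAR, RSEM, edgeR and GRCm38 are named per the submitters' processing notes, without roles or versions. Libraries were made with a stranded mRNA kit per the labels' protocols. The strand setting and annotation release are not given in the sources used here. All values were whole, so the expected counts appear to have been rounded before deposit. 0 columns were left unmapped, and no 2 libraries were identical.

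Genes were filtered with filterByExpr (minimum count 10, minimum total 15), scaled by TMM (factors 0.976 to 1.01) and tested for genotype over all 6 libraries with the quasi-likelihood method of edgeR 4.0.16 in R 4.3.3, with Benjamini-Hochberg adjustment and a threshold of 0.05. An SE is the fold change over the square root of F, and 95% intervals use the t distribution. Alternatives were RLE factors, other filters, a replicate block, DESeq2 1.42.0, limma-voom (limma 3.58.1), robust moderation, left-out libraries, the structural RNA split and a B cell covariate. The model was tested on simulated data. Coordinates, exon lengths and shared 50-base stretches were read from GENCODE on GRCm38 (48349 of 48709 identifiers matched without version). Nothing in the labels pairs the replicate numbers, and deviations of same-numbered libraries correlated at −0.369 to −0.0688, so they were not taken as pairs. Library values are given for the catalytic subunits, for the highest and lowest fold change and level of each class, and for the smallest p of each list. Psmd8, Psmb9, Psmb8 and Psmb5 promoters, and the other genes named, were chosen after their values were seen. The members and lists were chosen with earlier results of these data known.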

Additional observations from a re-analysis of the deposited data

How the results depend on the processing

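Over the 15 other settings, 0 core, immunoproteasome, activator, inhibitor and chaperone genes were called, and 0 cap genes except without the low-count filter, which called 1, Psmd14. The core median log2 fold change ran from 0.0496 to 0.132 and the cap median from 0.028 to 0.144. The number of proteasome genes with an unadjusted p under 0.05 ran from 0 to 12, and it was 12 without wild-type replicate 1 and 1 without wild-type replicate 2. Over all genes, the calls higher and lower were 207 and 315 with no filter, 4 and 27 with the structural RNA split, 4 and 0 with the B cell covariate, and 109 and 242 by DESeq2. With left-out libraries they ran from 4 to 36 higher and from 1 to 91 lower. The fit with the replicate block called 6 and 9 genes and 0 proteasome genes, with a core median of 0.0886 and a cap median of 0.0912. The cause of these shifts was not tested.

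Small fold changes turned sign in places, none past the threshold. Psmd9 was 0.0926 with the structural RNA split, and −0.121 to 0.0358 with left-out libraries. With the B cell covariate Psmb10 was −0.121, Psmb6 −0.0701 and Psmb9 −0.0206. With left-out libraries Psmb10 ran from −0.00264 to 0.105, Psmb6 from −0.00566 to 0.0828, Psmb7 from −0.016 to 0.119 and Psmb9 from −0.0113 to 0.103. The difference in log2 ratio ran from −0.0716 to 0.0649 for Psmb9 to Psmb6 and from −0.0482 to 0.111 for Psmb10 to Psmb7. The median SE of the members' log2 fold changes was 0.0796, with 3 pooled libraries a genotype.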
